A study of Mus musculus with 7 samples.

Results

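Matrix metalloproteases and their inhibitors were followed in mouse fetal liver cells on 7 short-oligonucleotide expression arrays. The members are 9 genes chosen by symbol: the metalloproteases Mmp2, Mmp3, Mmp12, Mmp13 and Mmp14, the inhibitors Timp1, Timp2 and Timp3, and the disintegrin-type protease Adamts1. They are read by 19 of 22690 probe sets, each annotated to 1 of these symbols alone, and they are 9 of the 12393 genes with such a probe set. The arrays cover a layer of feeder cells of fetal liver (n = 1), unsorted liver endothelial progenitors (n = 1), and progenitors sorted by the surface antigen Sca1, with 2 arrays of Sca1+ and 3 of Sca1- cells. All are labelled as fetal liver total RNA; strain, fetal age, pooling and treatment are not given in the sources used here. Whether samples of a group are separate cultures or animals is not stated, and p-values therefore measure only sample-to-sample spread, possibly technical. The titles of Sca1+ replicate 2 and Sca1- replicates 2 and 3 carry a sample number and are called the later arrays; those of Sca1+ replicate 1 and Sca1- replicate 1 carry none and are called the first sorted arrays. The feeder array lies in a table of its own under another array platform, so every value set against it also crosses platforms.

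Metalloproteases are zinc enzymes that cut collagens, elastin and proteoglycans outside the cell, and most are made as inactive precursors. The tissue inhibitors of metalloproteases (Timp proteins) bind the active site, and Timp2 together with the membrane enzyme Mmp14 also brings the Mmp2 precursor to the cell surface, where Mmp14 activates it. In liver, fibroblast-like and stellate cells are known sources of Mmp2, Mmp14 and Timp1, while Mmp12 is known as the macrophage elastase.

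Each array's signals were brought to the same trimmed mean, 500. Differences are in log2 units, and any signal below the floor of 64 counts as 64. Precision is limited by how few arrays there are, and the feeder and unsorted values have no replicate. In RNA of mixed cells, fewer cells of a type and less RNA per cell cannot be told apart. Endothelial markers were sparse: of 17 measured, 7 exceeded a signal of 100 on the feeder array, 14 on the unsorted array and between 4 and 11 on the sorted arrays, and Pecam1, which encodes CD31, lay between 15.0 and 206 on the sorted arrays. Of 20 macrophage markers, 16 to 18 exceeded 100 on each of the 7 arrays. Of 21 stromal markers, 20 did so on the feeder array, 19 on the unsorted array, 18 or 19 on the later arrays and 9 or 10 on the first sorted arrays. The stromal markers summed to between 43407 and 115681 on the later arrays, against 5405 and 14856 on the first sorted arrays. The collagen gene Col1a1 differed by 7.47 and the fibroblast receptor gene Pdgfra by 2.39 between later and first arrays (limma estimates). Macrophage markers went both ways: of 18 tested, 4 were higher and 1 was lower on the later arrays, with a median difference of 0.52. Csf1r, the macrophage growth factor receptor, differed by -0.70, and Adgre1 (F4/80) by -1.56 within Sca1+ and 0.97 within Sca1-, while C1qa differed by 2.48 and Hmox1 by 2.74. Granulocyte markers summed to between 9789 and 219920 on the later arrays, against 136985 and 568808 on the first sorted arrays. The summed macrophage signal, much of it from the bright genes Lyz2, Csf1r and Ctss, was 130357 to 156558 on the later arrays, against 184650 and 219975 on the first sorted arrays, a direction opposite to that of the list's median. The 3'/5' signal ratio of the Actb control, which rises with truncated transcripts, was 1.87 to 2.37 on the later arrays, against 6.83 and 13.5 on the first sorted arrays. On the unsorted array it was 1.01 and on the feeder array 1.03, below every sorted array, so it also separates these from the sorted arrays. The part of any of these measures in the results for the metalloprotease genes was not tested.

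Samples of 1 fraction were first compared between the later and the first sorted arrays, a split that the titles give and the sort does not. Most of these genes were higher on the later arrays: Mmp14, Mmp2, Timp3, Timp1, Mmp12 and Adamts1 passed the test, with log2 differences between 1.79 and 3.45. Mmp13 missed the threshold, Timp2 did not pass, and Mmp3 was too dim to be tested. With limma fitted to the 5 sorted arrays with the fraction as a term, 1002 of 8591 genes tested (11.7%) were higher on the later arrays at an adjusted p under 0.05 and 647 (7.53%) were lower, against 6 and 0 of the 9 members. The balance over all genes turned with the scaling: 60.8% of the genes called were higher here, 49.1% with quantile normalization (886 higher, 918 lower) and 41.8% with median scaling (539 higher, 751 lower). Of the members, 7 were then called higher with quantile normalization and 5 with median scaling, and 0 lower with either. The median of all genes was -0.07 and -0.10 under these scalings, and that of the 8 members tested 2.05 and 2.06. At an unadjusted p under 0.05, 36.8% of genes passed, 21.6% higher and 15.2% lower, against 7 and 0 of the 9 members. Mmp13 entered the test only through its signals on the later arrays, so its inclusion follows from the direction of its difference. Timp3 (82.6 and 142 on the first sorted arrays) and Adamts1 (149 and 94.3) also needed a later array above 100 to enter. Their inclusion thus depends in part on that direction. The median difference of the 8 members tested was 2.25, and that of all 8591 genes was 0.10. For 7 of the 9 members all 3 later arrays lay above both first sorted arrays, which was so for 26.3% of the genes tested. Without the filter on low signals, where 12393 genes were tested and 99 passed, none of the 6 members passed, with adjusted p between 0.0519 for Mmp14 and 0.223 for Mmp12 (limma). With the floor raised by 1 log2 unit, Mmp2, Timp1, Adamts1 and Mmp12 did not pass (adjusted p between 0.0652 and 0.118), while Mmp14 and Timp3 did. Without the fraction as a term, Mmp14, Adamts1 and Mmp12 did not pass (adjusted p = 0.0507, 0.0799 and 0.0925, limma).

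**Figure D1:**
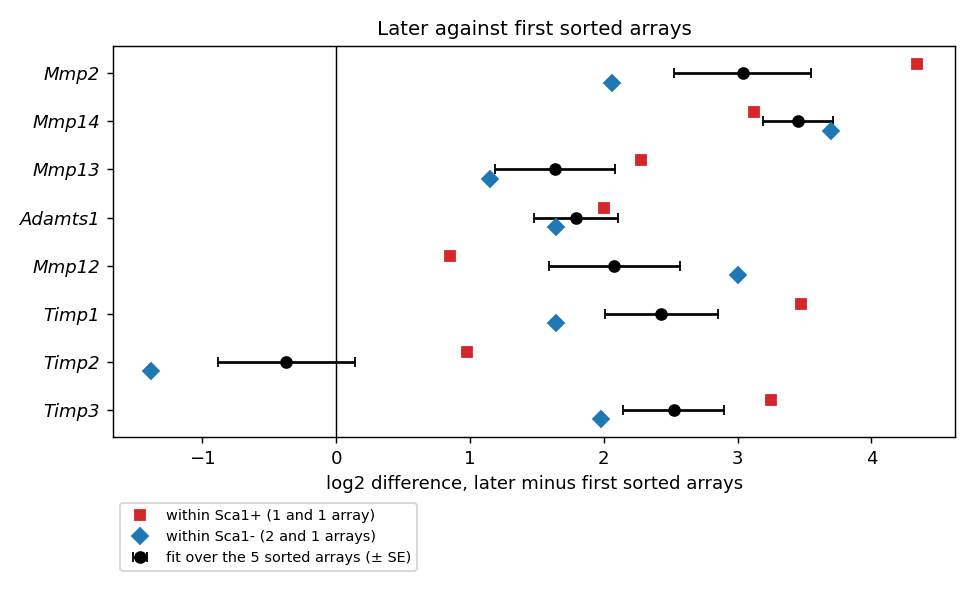
Log2 difference (horizontal) of later minus first sorted arrays for the 8 members tested; black points are limma estimates with SE, squares are within Sca1+ and diamonds within Sca1-. Both fractions lie above 0 for all but Timp2, for which the fractions lie at 0.98 and -1.38.

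The comparison of Sca1+ with Sca1- asks whether the fractions differ in these genes. No member differed beyond the spread between arrays. With limma and group as the only term, 0 of 8591 genes (0%) and 0 members had an adjusted p under 0.05 (adjusted p = 0.9995 for each of the 8 tested). At an unadjusted p under 0.05 there were 292 genes (3.4%) and 0 members. The difference lay above 0 for 5 members and for 55.9% of genes, and the median difference was 0.36 over the 8 tested members and 0.07 over all genes. The Sca1+ signals did not overlap with the Sca1- signals and were higher for Mmp3 alone, which was not tested, and for 12.1% of the genes tested; they were lower without overlap for 0 members and 8.45% of genes. Sca1+ was at least 2-fold higher for 4 members within the later set (Mmp2, Mmp14, Mmp13 and Adamts1; 5.3% of genes) and for 2 within the first set (Mmp14 and Mmp12; 17.1% of genes). Within the first set it was at least 2-fold lower for Timp1 (-1.24) and Timp2 (-2.24). The second Mmp14 probe set was at the floor on both first sorted arrays, so it does not show that gene's first-set difference. The lowest member within the later set was Mmp12 at -0.11. The share of all genes lower by 2-fold was not counted. With the later and first arrays as a block, 85 genes passed (0.989%), 0 of them higher in Sca1+, and 0 were members. Mmp14 came closest in that fit, at 1.68 ± 0.26 (SE) with an adjusted p of 0.0521 (limma). An interaction of fraction and set, added after seeing the data and left with 1 residual degree of freedom, was passed by 0 of 8591 genes after adjustment; 31.4% of genes and 4 of the 9 members (Mmp2, Mmp12, Timp1 and Timp2) had an unadjusted p under 0.05.

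**Figure D2:**
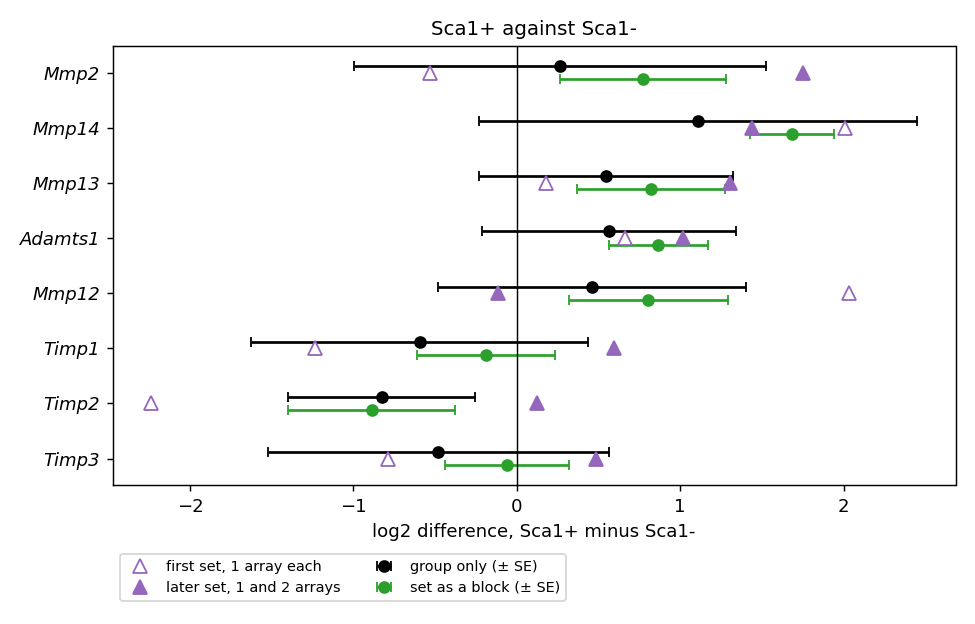
Log2 difference (horizontal) of Sca1+ minus Sca1- for the 8 members tested, with group only (black, SE), with the sample set as a block (green, SE) and within each set (triangles). The open and filled triangles lie on opposite sides of 0 for Mmp2, Mmp12, Timp1, Timp2 and Timp3.

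Mmp2 (gelatinase A) degrades denatured and basement membrane collagen. Its signal was 4064 on the feeder array and 4228 on the unsorted array. Among sorted samples it was 156 and 3155 in Sca1+, against 225, 899 and 978 in Sca1-. The feeder and unsorted arrays were close to each other and above all sorted arrays, Sca1+ replicate 2 came near them, and both first sorted arrays were lowest. The later arrays were higher than the first by 3.04 ± 0.51 (SE, adjusted p = 0.0140, limma), by 4.34 within Sca1+ and by 2.06 within Sca1-. The difference of Sca1+ minus Sca1- was 0.27 ± 1.26 (SE), 0.77 ± 0.51 with the block (adjusted p = 0.478), 1.75 in the later set and -0.53 in the first set. Its second probe set gave the same order of sets, with a difference of 3.90 ± 0.46 (SE, adjusted p = 0.00492 over all probe sets, limma). That probe set read 4785 on the feeder array and 3079 on the unsorted array, so these arrays were close on the probe set used alone.

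Mmp14 (membrane type 1 metalloprotease) is anchored at the cell surface and cuts fibrillar collagen as well as the Mmp2 precursor. Its signal was 3355 on the feeder array and 2446 on the unsorted array. Sca1+ cells gave 455 and 3969, against 113, 1605 and 1335 in Sca1- cells. Sca1+ replicate 2 was the highest array, and each first sorted array was lowest in its fraction. The later arrays were higher by 3.45 ± 0.26 (SE, adjusted p = 0.00208, limma), by 3.13 within Sca1+ and by 3.70 within Sca1-. Between the fractions, Sca1+ minus Sca1- was 1.11 ± 1.34 (SE), and 1.44 in the later set against 2.01 in the first set. A second Mmp14 probe set had a later-minus-first difference of 3.02 ± 0.47 (SE, adjusted p = 0.00967 over all probe sets, limma). It was below the floor on both first sorted arrays (17.0 in Sca1+, 52.6 in Sca1-), so it does not show the first-set difference. Its Sca1+ minus Sca1- difference was 0.52 ± 1.24 (SE). Unlike the probe set used, it was highest on the feeder array (1364, against 1059 on Sca1+ replicate 2).

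Adamts1 cleaves large aggregating proteoglycans and is known to be made by stromal and endothelial cells. Its signal was 1326 on the feeder array and 725 on the unsorted array. The Sca1+ samples read 149 and 596, while the Sca1- samples read 94.3, 266 and 325. The feeder and unsorted arrays lay above all 5 sorted arrays. The later arrays were higher by 1.79 ± 0.31 (SE, adjusted p = 0.0152, limma). Without Sca1- replicate 1 the difference was 2.00 and did not pass. That fit sets a single later Sca1+ array against a single first one, so it says little of their spread. Sca1+ minus Sca1- was 0.57 ± 0.78 (SE), 0.87 ± 0.30 with the block (adjusted p = 0.283), and 1.02 in the later set against 0.66 in the first set. Neither fit passed the test.

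Mmp3 (stromelysin 1), Mmp13 (collagenase 3) and Mmp12 lie in a run of 10 metalloprotease genes on chromosome 9. Mmp13 and Mmp12 are adjacent there, and Mmp1b lies between Mmp12 and Mmp3. The promoter windows of these genes are shown because the cluster members carry a pair of motifs that the other members' windows lack. The RefSeq table (GRCm38.p6) holds windows of 300 bases, from 250 before to 50 after each start site, for 8 of the 9 members; Mmp2 has none there. The AP-1 site was searched as TGANTCA, which reads the same on both strands. The TATA box was searched as TATAAA on either strand. The GC box was searched as GGGCGG on either strand, and capitals mark each match in the 100 bases before and 50 bases after the start.
Mmp3 (chr9:7445722-7445871, + strand): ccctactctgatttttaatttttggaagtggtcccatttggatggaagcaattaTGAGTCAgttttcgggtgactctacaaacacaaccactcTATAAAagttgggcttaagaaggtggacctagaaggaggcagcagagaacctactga
Mmp13 (chr9:7272414-7272563, + strand): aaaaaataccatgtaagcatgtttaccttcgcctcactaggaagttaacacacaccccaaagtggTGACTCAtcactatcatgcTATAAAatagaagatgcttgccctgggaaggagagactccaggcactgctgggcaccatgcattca
Mmp12, the second of its starts (chr9:7347274-7347423, + strand): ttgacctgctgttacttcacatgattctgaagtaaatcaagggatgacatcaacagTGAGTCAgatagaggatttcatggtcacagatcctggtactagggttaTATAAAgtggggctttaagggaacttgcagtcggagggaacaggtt
Mmp14 (chr14:54431498-54431647, + strand): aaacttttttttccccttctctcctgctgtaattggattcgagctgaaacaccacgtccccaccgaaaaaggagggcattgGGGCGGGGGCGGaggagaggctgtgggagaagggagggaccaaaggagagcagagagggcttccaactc
Timp3 (chr10:86300312-86300461, + strand): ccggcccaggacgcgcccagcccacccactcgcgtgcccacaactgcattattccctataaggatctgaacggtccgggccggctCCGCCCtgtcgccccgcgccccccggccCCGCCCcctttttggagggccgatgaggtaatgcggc
The windows of Mmp3, Mmp13 and the second Mmp12 start each held 1 AP-1 match, beginning at -46, -35 and -44 from the start, and 1 TATA box, beginning at -7, -16 and 4. The first Mmp12 window held no match to any of the 3 motifs. AP-1 matches were found in 7.81% of 32851 windows of this length, TATA boxes in 13.6% and GC boxes in 35.7%. None of the other members' windows held an AP-1 match. Mmp14, Timp1, Timp2, Timp3 and Adamts1 each held at least 1 GC box, and Adamts1 also held 1 TATA box at -32. No match overlapped another.

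Mmp3 activates other metalloproteases and degrades proteoglycans. Its signal was 142 on the feeder array and 202 on the unsorted array. Among sorted samples it was 92.8 and 90.8 in Sca1+, against 49.6, 51.8 and 32.2 in Sca1-. All 3 Sca1- arrays were at the floor and no sorted array exceeded 100, so the gene was not tested and the size of its differences is not known. The highest bacterial control probe set, which reads background if no such transcript was added, stood at 60.8 on the feeder array, 170 on the unsorted array and between 50.8 and 170 on the sorted arrays. On the unsorted array Mmp13 lay under it. Among the sorted arrays the control was highest on Sca1- replicate 1, where Mmp14, Adamts1, Mmp12, Mmp13 and Timp3 also lay under it. Their differences against Sca1- replicate 1 thus rest on a signal not above this control. With the control level in place of those signals, the later-minus-first difference within Sca1- was 3.11 for Mmp14, 2.71 for Mmp12, 1.72 for Timp3, 0.79 for Adamts1 and -0.26 for Mmp13. The difference of Sca1+ minus Sca1- in the first set was then 1.42 for Mmp14, 1.74 for Mmp12, -1.04 for Timp3, -0.19 for Adamts1 and -1.23 for Mmp13, so its sign was not settled for Adamts1 and Mmp13.

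Mmp13 cuts fibrillar collagens. Its signal was 304 on the feeder array and 141 on the unsorted array. Sca1+ cells gave 72.4 and 351, against 3.20, 112 and 180 in Sca1- cells. Sca1+ replicate 2 was highest, and Sca1- replicate 1 was at the floor, so the size of differences against that array is not known. The later-minus-first difference was 1.63 ± 0.45 (SE, adjusted p = 0.0513, limma), 2.28 within Sca1+ and 1.15 within Sca1-. Its call varied with the settings. It passed with a floor of 16 (adjusted p = 0.0268) and quantile normalization (adjusted p = 0.0426). With 32 added to each signal in place of a floor it passed too (adjusted p = 0.0199, limma). So it did with all probe sets tested (adjusted p = 0.0461), probe sets averaged per gene (0.0477) and no intensity trend (0.0488, limma). It did not pass with median scaling (adjusted p = 0.0579), without the fraction term (adjusted p = 0.129), without the filter (adjusted p = 0.196), with the floor raised by 1 log2 unit (0.76, adjusted p = 0.252), or in 4 of the 5 fits that left out 1 array. The difference of Sca1+ minus Sca1- was 0.55 ± 0.78 (SE), 0.82 ± 0.45 with the block (adjusted p = 0.413), and 1.30 in the later set against 0.18 in the first set.

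Mmp12 digests elastin. Its signal was 6747 on the feeder array and 3992 on the unsorted array. The Sca1+ samples read 567 and 1024, while the Sca1- samples read 139, 1191 and 1032. The feeder array lay 2.50 and the unsorted array 1.75 above the highest sorted array, the largest such gaps among the 9 members. The feeder array lay above all 5 sorted arrays for 5 members (Mmp2, Mmp3, Adamts1, Mmp12 and Timp3) and 23.7% of genes, and the unsorted array for 4 (Mmp2, Mmp3, Adamts1 and Mmp12) and 35.4% of genes. A gap of at least 2-fold above all sorted arrays was met by 2.3% of 9946 genes on the feeder array and 6.71% of 10510 genes on the unsorted array. Macrophage markers gave no single direction there. Their sums were 99530 on the feeder array and 100193 on the unsorted array, against 130357 to 219975 on the sorted arrays, but of 20 markers 8 lay above and 11 below the sorted mean on the feeder array, and 9 above and 10 below on the unsorted array. On the feeder array 3 of the 20 lay above all 5 sorted arrays and 5 below all of them. On the unsorted array 2 lay above and 6 below. Mrc1, the macrophage mannose receptor, named after its values were seen, was 1 of the few above on both, as Mmp12 was, and its later-minus-first difference was 0.43 within Sca1+ and 2.72 within Sca1-. The later arrays were higher by 2.08 ± 0.49 (SE, adjusted p = 0.0336, limma), by 0.85 within Sca1+ and by 3.00 within Sca1-. Without Sca1- replicate 1 the difference was 0.85 and did not pass. That fit sets a single later Sca1+ array against a single first one, so it says little of their spread. With all 5 sorted arrays the call was lost with median scaling (adjusted p = 0.0787, limma). Between the fractions, Sca1+ minus Sca1- was 0.46 ± 0.94 (SE), -0.11 in the later set and 2.03 in the first set.

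**Figure D3:**
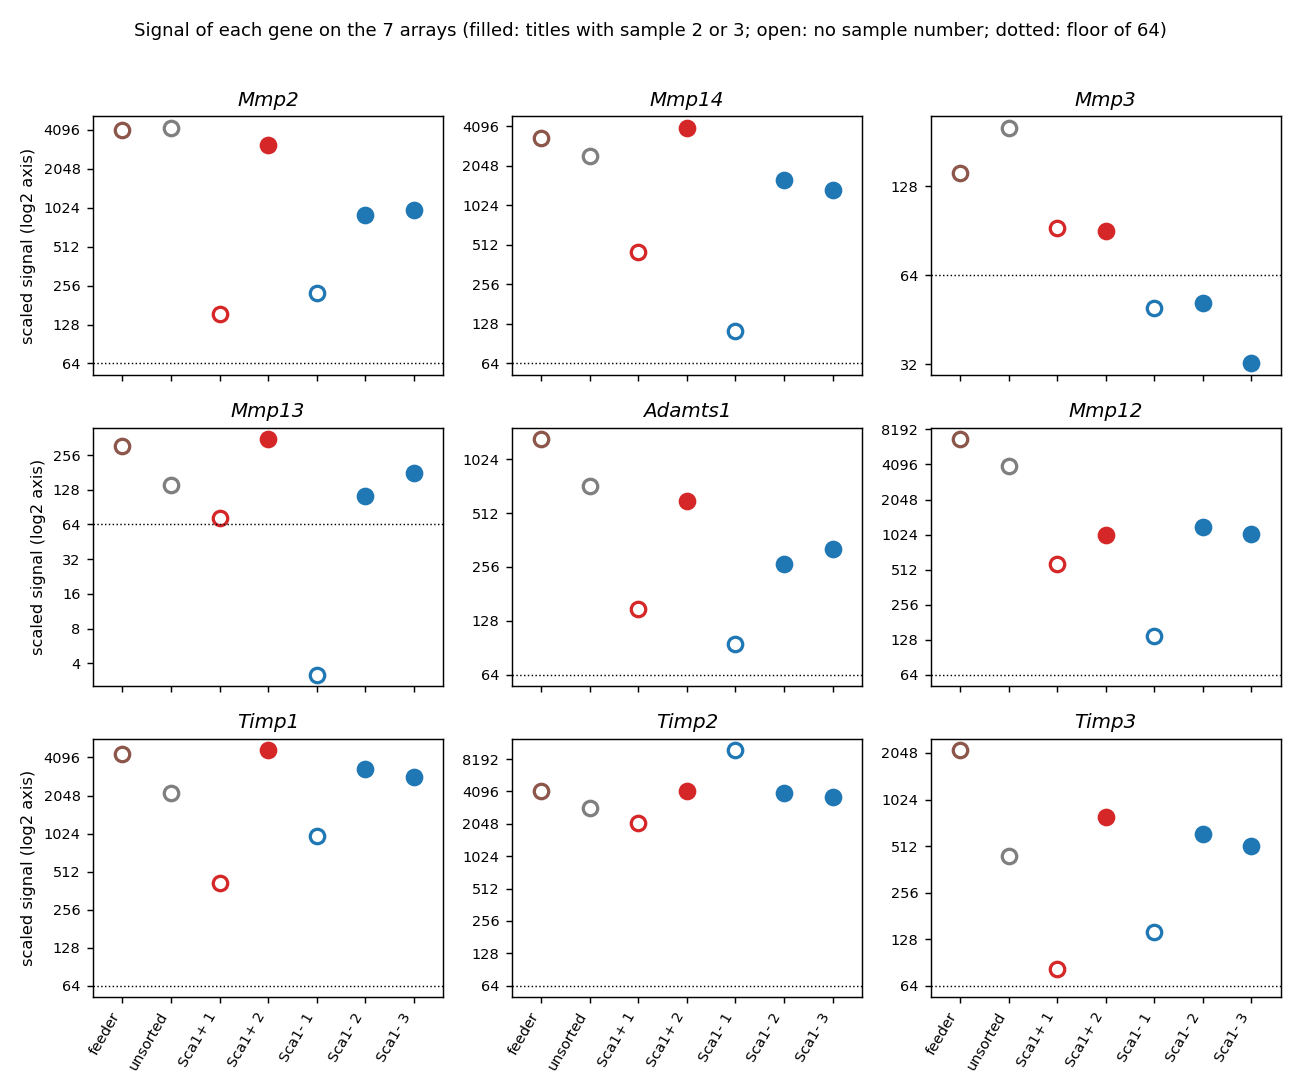
Scaled signal (vertical, log2 axis) of the 9 genes on the feeder, unsorted, Sca1+ and Sca1- arrays, 1 point an array; filled points are later arrays, open points the others, and the dotted line is the floor of 64. The 3 filled points lie above both open sorted points for every gene but Mmp3 and Timp2, and Mmp12 is highest on the feeder and unsorted arrays.

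Timp1 inhibits most soluble metalloproteases and is known to be induced in activated stromal cells. Its signal was 4384 on the feeder array and 2153 on the unsorted array. Among sorted samples it was 419 and 4661 in Sca1+, against 987, 3316 and 2865 in Sca1-. Unlike for Mmp2 and Mmp12, the unsorted array lay below all 3 later arrays, and the feeder array did not exceed Sca1+ replicate 2. The later arrays were higher by 2.43 ± 0.42 (SE, adjusted p = 0.0151, limma), by 3.48 within Sca1+ and by 1.64 within Sca1-. Sca1+ minus Sca1- was -0.59 ± 1.03 (SE), -0.19 ± 0.42 with the block (adjusted p = 0.847), 0.60 in the later set and -1.24 in the first set.

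Timp3 binds to the extracellular matrix and also inhibits several membrane sheddases. Its signal was 2129 on the feeder array and 443 on the unsorted array. Sca1+ cells gave 82.6 and 784, against 142, 615 and 511 in Sca1- cells. The feeder array stood 2.26 above the unsorted array, the largest such difference among the members. The later arrays were higher by 2.52 ± 0.38 (SE, adjusted p = 0.0103, limma), by 3.25 within Sca1+ and by 1.98 within Sca1-. The difference of Sca1+ minus Sca1- was -0.48 ± 1.04 (SE), -0.06 ± 0.38 with the block (adjusted p = 0.950), 0.48 in the later set and -0.79 in the first set. Of its 4 probe sets, 1 was below the filter, 1419089_at was also higher on the later arrays (1.73 ± 0.35 SE, adjusted p = 0.0205 over all probe sets, limma), and 1419088_at did not pass (0.69 ± 0.43 SE, adjusted p = 0.286).

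Timp2, which both inhibits metalloproteases and takes part in Mmp2 activation, did not follow the other members. Its signal was 4165 on the feeder array and 2865 on the unsorted array. The Sca1+ samples read 2087 and 4113, while the Sca1- samples read 9852, 3939 and 3623. Sca1- replicate 1, which was among the lowest arrays for the other tested members, was the highest for Timp2. The later-minus-first difference was -0.37 ± 0.51 (SE, adjusted p = 0.632, limma), 0.98 within Sca1+ and -1.38 within Sca1-, so the fit averages opposite values. Without Sca1- replicate 1 it was 0.98, and without either Sca1+ array it was -1.38. These fits equal the values within 1 fraction and set the later arrays against a single first array, whose spread is taken from the other arrays and genes, so their p-values (adjusted p = 0.0547, 0.0205 and 0.0221, limma) say little of that array's own spread. Between the fractions, Sca1+ minus Sca1- was -0.83 ± 0.57 (SE), 0.12 in the later set and -2.24 in the first set.

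The 6 Timp2 probe sets disagreed. The one used for the gene, 1460287_at, and 1454677_at had later-minus-first differences of -0.37 ± 0.50 and -0.49 ± 0.39 (SE), while 1433662_s_at had 1.13 ± 0.37 and 1450040_at 1.33 ± 0.40; none of the 4 passed (adjusted p between 0.0614 and 0.623 over 13251 probe sets, limma). Of the rest, 1420924_at read 919 on the feeder array, 836 on the unsorted array and 61.8 to 164 on the sorted arrays, and 1437081_at was at the floor on all 7 arrays. A statement on Timp2 therefore depends on the probe set read, and how their positions along the transcript relate to the differing 3' to 5' ratios was not tested.

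**Figure D4:**
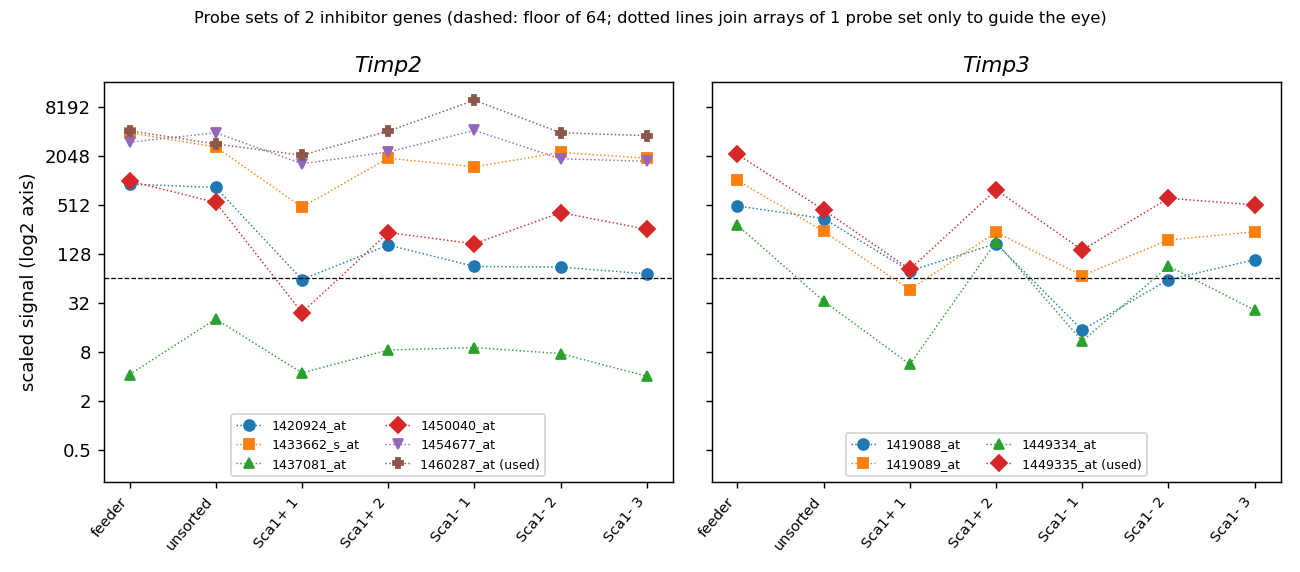
Scaled signal (vertical, log2 axis) of each probe set of Timp2 (left) and Timp3 (right) on the 7 arrays; 1460287_at and 1449335_at are the ones used for the gene. Timp2 1460287_at peaks at 9852 on Sca1- replicate 1, which 1450040_at does not, while the 4 Timp3 probe sets are all lower on the first sorted arrays than on Sca1+ replicate 2.

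The feeder and unsorted arrays were set side by side without a test. Mmp13, Timp1 and Timp3 exceeded a 2-fold difference, by feeder-minus-unsorted log2 differences of 1.11, 1.03 and 2.26. The Mmp13 signal on the unsorted array, 141, lay under the highest bacterial control there, 170, so the size of its difference is not known. Mmp3 (-0.51) and, on the probe set used, Mmp2 (-0.06) were not higher. The second Mmp2 probe set differed by 0.64, and the mean of its probe sets by 0.29. Differences of 2-fold or more favoured the feeder array for 4.08% of 9751 genes and the unsorted array for 15.9%, against 3 and 0 of the 9 members. The members' median was 0.76, and that of all genes -0.13. Median scaling moved the median of all genes to 0.29 and turned Mmp2 to 0.30, while the members' median was then 1.12. Against the mean of the sorted fractions, the members' median was 1.87 on the feeder array, where that of all genes was 0.01, and 1.40 on the unsorted array, where that of all genes was 0.28.

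The members were then described by their likeness to stromal and macrophage markers. Each profile over the 7 arrays was centred on its own mean, and the root mean square (RMS) difference from the median marker profile was taken, in log2 units; the arrays share platform and sample effects, and no test was made. Of the 9 members, 6 were nearer to the stromal markers: Mmp2 (RMS 0.35 from stromal and 1.70 from macrophage markers), Timp3 (0.63 and 1.36), Adamts1 (0.64 and 1.13), Mmp14 (0.65 and 1.49), Timp1 (0.74 and 1.07) and Mmp12 (0.98 and 1.61). Mmp13 (0.94 from stromal and 0.72 from macrophage markers), Mmp3 (1.42 and 0.64) and Timp2 (1.83 and 0.82) were nearer to the macrophage markers, whose median profile is nearly flat because its genes go both ways, with a range from -0.54 to 0.46. The split follows the range of a gene over the arrays, which was 3.48 or more for the 6 and 2.45 or less for the other 3, so nearness to the macrophage profile reads a small range as much as a macrophage pattern. It also changed with the probe set read. Timp2 1450040_at (0.91 from stromal and 1.20 from macrophage markers) and 1420924_at (1.19 and 1.56) were nearer to the stromal markers. Timp3 1449334_at (1.25 and 0.74) was nearer to the macrophage markers. Against single markers the separation was clear for Mmp2, whose nearest stromal marker was Lum (RMS 0.28) and nearest macrophage marker Cd5l (0.84). Timp3 was also nearer to a stromal marker, Tagln (0.62), than to any macrophage marker (Vsig4, 0.77). For Mmp14, Adamts1 and Timp1 the nearest marker of the 2 lists was a macrophage one, with C1qa at 0.57 against Pdgfrb at 0.59, Cd5l at 0.56 against Prrx1 at 0.62, and Vsig4 at 0.45 against Prrx1 at 0.67. Mmp12, known as the macrophage elastase, was about as far from the nearest stromal marker, Pdgfra (0.92), as from the macrophage markers C1qa and Mrc1 (both 0.96). By the nearest single marker the 2 patterns were therefore not told apart for these 4 genes. Further down the lists the stromal markers were nearer. The marker of rank 10 lay at 0.90 (stromal) against 1.66 (macrophage) for Mmp14 and 0.95 against 1.26 for Adamts1. For Timp1 it lay at 1.04 against 1.24, and for Mmp12 at 1.18 against 1.70. For the dim genes Mmp3 and Mmp13 the floor holds part of the profile level, and with a floor of 16 the number nearer to the stromal markers was 7.

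**Figure D5:**
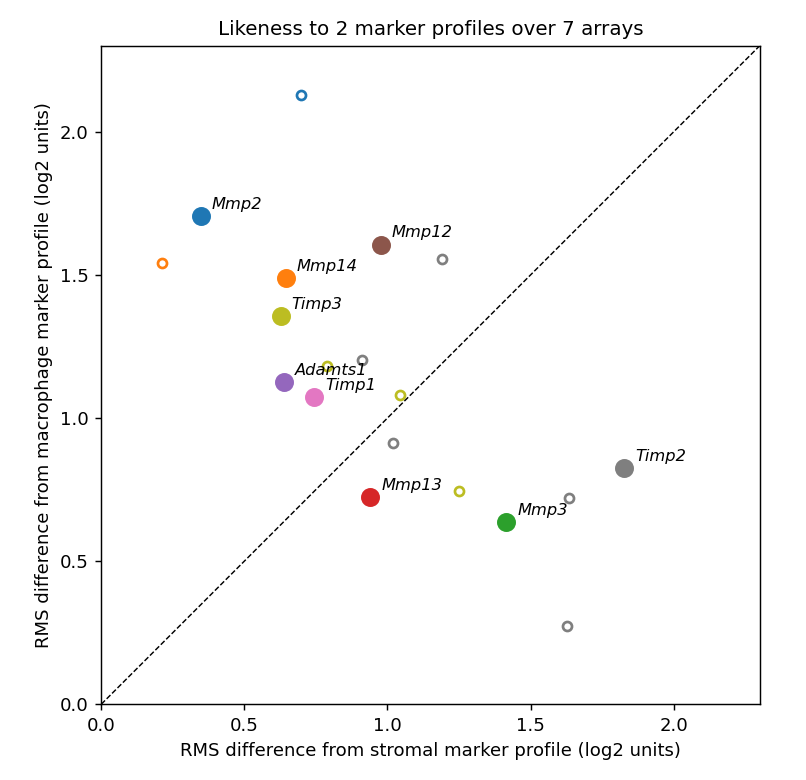
RMS difference (log2 units) of each probe set's centred profile from the stromal (horizontal) and macrophage (vertical) marker profile over 7 arrays; large points are the probe sets used, small open points the others, coloured by gene. Points above the dashed line are nearer to the stromal profile, which follows the range of a gene over the arrays, with Mmp2 at 0.35 and 1.70 and Timp2 far to the other side at 1.83 and 0.82.

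The genes nearest to each member, among 5545 compared, were Peg3 (RMS 0.19) and Cyp1b1 (0.21) for Mmp2, Id3 (0.23) and Lamc1 (0.38) for Mmp14, and Csrp2 (0.14) and Pcdh7 (0.20) for Adamts1. They were Atf5 (0.24) and Ppp1r11 (0.34) for Timp1, Cryab (0.32) and Ltbp2 (0.34) for Timp3, and Gatad2b (0.18) and Ddit3 (0.19) for Timp2. Mmp12 had no close match, with Hspb1 and Axl both at 0.49. For the dim genes the nearest were Cbx6 and Tsc22d1 (both 0.26) for Mmp13, and Gnl2 (0.13) and Sdhaf2 (0.16) for Mmp3.

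Of 54 other matrix proteases and regulators listed, 43 were measured and 27 tested. On the later arrays 8 were higher and 2 lower at an adjusted p under 0.05 (limma), and their median difference was 0.76. The procollagen-processing protease Bmp1 (3.35 ± 0.36 SE) and its enhancer Pcolce, the metalloprotease inducer Bsg and the scavenger receptor Lrp1, which takes up protease and inhibitor complexes, were among those higher. The neutrophil enzymes Mmp9 and Mmp8 were the 2 that were lower. Mmp9 had signals of 859 on Sca1+ replicate 2 and 3136 and 3411 on Sca1- replicates 2 and 3, against 7920 on Sca1+ replicate 1 and 40326 on Sca1- replicate 1, a difference of -3.44 ± 0.22 (SE, adjusted p = 0.00154, limma). Mmp8 (collagenase 2) differed by -2.24 ± 0.40 (SE, adjusted p = 0.0161, limma). Between the fractions 0 of the 27 passed with group only. Mmp8 (-3.39), Plaur (-0.996), Adam9 (1.10) and Reck (-1.16) had the smallest p, and with the block Mmp8 and Mmp9 were the 2 that passed, lower in Sca1+ (adjusted p = 0.0149 and 0.0142, limma).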

How the data were processed

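RNA was measured on 7 single-colour arrays, and the authors deposited 1 signal intensity per probe set on a linear scale. Per the submitters' processing notes the 3 later arrays were processed with GCOS; for the other 4 the software was not given in the sources used here. Tables were joined by probe set name. Scaling set the trimmed mean (2% off each tail) to 500, a floor of 64 followed, and then log2. Probe sets with 1 annotated gene were used, the brightest per gene over the 6 arrays of the larger table. A gene needed a signal above 100 on 2 or more sorted arrays to enter the test with limma 3.58.1 in R 4.3.3 (intensity trend, Benjamini-Hochberg over 8591 genes). Sca1+ against Sca1- used 6 arrays and 1 mean per group; later against first used the 5 sorted arrays with the fraction as a term; residual degrees of freedom were 3 and 2. Single arrays were described without a test, over genes above 100 on at least 1 array compared.

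Named were all 9 members with their probe sets; of the other proteases up to 6 past the threshold by size, or 4 by the smallest p, and always Mmp8 and Mmp9; the markers Col1a1, Pdgfra, Adgre1, Csf1r and Pecam1; and the 2 nearest genes by RMS among those above 500 on at least 1 array and above the floor on at least 4. Members and lists were chosen with earlier results of these data known. Alternatives were other scalings, floors, filters, probe set rules, variance and block settings, and leaving out each sorted array; the interaction, single markers and the bacterial control as a floor were added after seeing the data. The tests were checked on simulated data. Figures were drawn with matplotlib 3.10.9.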

Additional observations from a re-analysis of the deposited data

Results flagged for a closer look

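The difference between Sca1+ and Sca1- had opposite signs in the later and the first arrays for 5 members. It was 1.75 in the later and -0.53 in the first arrays for Mmp2, -0.11 in the later and 2.03 in the first for Mmp12, 0.60 and -1.24 for Timp1, 0.12 and -2.24 for Timp2, and 0.48 and -0.79 for Timp3. For Timp2 the later-minus-first difference was also of opposite sign in the fractions, at 0.98 within Sca1+ and -1.38 within Sca1-. An interaction of fraction and set was fitted after seeing the data, with limma over the 5 sorted arrays, which leaves 1 residual degree of freedom. Its size was 2.28 for Mmp2, -2.15 for Mmp12, 1.83 for Timp1, 2.36 for Timp2 and 1.27 for Timp3. Within a set, only the later Sca1- arrays are replicated, so a gene's own spread comes from them alone. The spread of the Sca1+ arrays and of the first sorted arrays, whose single values make the interaction, is not measured. The fit therefore cannot decide whether the difference between the fractions changed with the set. No group holds enough arrays for a test of outlying samples.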

How the results depend on the processing

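Of the tested members, Mmp14, Mmp2, Timp3, Timp1, Mmp12 and Adamts1 kept their direction in the later-against-first comparison under every alternative run, though not their calls. The count of genes past the threshold between later and first arrays, 1649, became 547 with the floor raised by 1 log2 unit, 99 without a filter, 2666 with all probe sets tested, where more features enter, and 593 without the fraction term, and lay between 574 and 2966 when 1 array was left out, lowest without Sca1- replicate 1. It was 830 without Sca1- replicate 3, 2966 without Sca1+ replicate 1 and 2965 without Sca1+ replicate 2. The count between Sca1+ and Sca1-, 0, became 1 without a filter and 85 with the sets as a block, and stayed at 0 with each array left out. With the replicate number as a block it was 80. The numbers are only shared labels here. Deviations of same-numbered arrays correlated at 0.57 and 0.48 over genes, but those of Sca1+ replicate 2 and Sca1- replicate 3 did so at 0.52. Same-numbered arrays also share their set, and 2 pairs do not show pairing. With probe sets averaged per gene Timp3 turned to 0.11 between the fractions and Timp2 to 0.35 between the sets. Leaving out 1 array moved Sca1+ minus Sca1- between -1.91 and 2.44 for Mmp2, -0.46 and 2.67 for Mmp14, -0.59 and 1.69 for Mmp13, -0.43 and 1.57 for Adamts1, -0.54 and 1.01 for Mmp12, -2.33 and 1.14 for Timp1, and -2.10 and 1.14 for Timp3, and the later-minus-first difference of Timp2 between -1.38 and 0.98. The causes were not tested. Signals under the highest bacterial control limit Mmp3 on all 3 Sca1- arrays, Mmp13 on the unsorted array and Mmp14, Adamts1, Mmp12, Mmp13 and Timp3 on Sca1- replicate 1.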

Other observations

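Of the other listed proteases, 4 of 43 measured differed by 2-fold or more in favour of the feeder array and 7 in favour of the unsorted array. Over the 9751 genes compared these shares were 4.08% and 15.9%. The urokinase gene Plau, named here after its values were seen, had signals of 4512 on the feeder array, 1793 on the unsorted array, and 461 to 1410 over the sorted samples. The feeder array was above all 6 others for Plau, as it was for Mmp12, Timp3 and Adamts1.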
